A study of Mus musculus with 36 samples.

Results

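The genes described here encode the 12 families of classical axon guidance ligands and receptors in the embryonic mouse gut: semaphorins with their plexin and neuropilin receptors, ephrins with their Eph receptors, Slits with their Robo receptors, and netrins with their Unc5 receptors. They were chosen by gene symbol and by level. Of 23847 gene entries, 66 carried a symbol of these families, Sema3c and Sema3d being left out by the rule and counted with the other guidance ligands, and 57 of them reached 1 FPKM (fragments per kilobase of transcript, scaled to the mapped fragments of the library, a level corrected for gene length and library depth) in at least 3 of 36 libraries; 14441 entries reached that level in all. The level that chose them was measured in these same libraries and is given as a description only. Sema3e reached 1 FPKM in 9 libraries, Ntn4 in 13 and Unc5a in 20, the fewest of the 57 members, though above the limit of 3. Epha8 and Slit1 reached it in 2 libraries and Ntn5 in 1, which puts them just outside, and Epha5, Epha6, Epha10, Plxnb3, Robo3 and Unc5d reached it in 0.

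The libraries were made from poly(A)-selected RNA of dissected guts of C57BL/6J embryos aged E10.5, E12.5 or E14.5 (E, embryonic day). At each stage there were 3 libraries for each sex from embryos labelled Ret null, which lack the receptor tyrosine kinase that enteric neural crest cells need to colonise the gut, and 3 for each sex from wild-type embryos. The labels do not say how many guts went into a library or whether libraries came from separate litters, and the tests therefore speak only of spread among libraries, some of it possibly technical. In all, 4 of the 12 groups held a pair of libraries that differed by no more than counting noise, and each such pair was averaged and counted as 1 sample, leaving 32 samples.

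Ret itself did not follow the labels in every library. In 11 of the 18 libraries labelled Ret null it lay between 0.0111 and 0.0587 FPKM, against 2.11 to 13.3 FPKM in the 18 wild-type libraries. In the other 7 it lay between 4.74 and 6.49 FPKM, within the wild-type range pooled over the stages. These were the 3 E10.5 females, E12.5 male 2, and E14.5 females 1 and 3 and male 1. At its own stage, E12.5 male 2 (6.12 FPKM) lay below all wild-type libraries (8.89 to 13.3 FPKM). Those of E14.5 (5.76 to 6.49 FPKM) lay below all wild-type libraries of that stage but male 2 (4.70 FPKM). By Xist and Ddx3y, 4 libraries did not match the sex they were labelled with: E10.5 Ret null female 3 and male 1 and females 1 and 2 of E12.5 wild type, both transcripts being present in the last pair. Each genotype comparison is therefore given for all libraries labelled Ret null and again without the 7 that held Ret RNA. Summed FPKM ranged from 404022 to 497295 per library. The fragments behind them, estimated from the files' confidence intervals, numbered about 4890000 to 41050000, and E12.5 libraries were the deepest.

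Axon guidance cues are secreted or membrane-bound proteins that attract or repel the growing tips of neurites and migrating cells. Class 3 semaphorins bind neuropilins, which signal through plexins, whereas most other semaphorins bind plexins directly; ephrins and Eph receptors signal in both directions between touching cells; Slits act through Robos; and netrins act through DCC family and Unc5 receptors. The same families also pattern blood vessels and epithelia, and in the gut netrins and semaphorin 3A are known to guide crest-derived cells and extrinsic nerve fibres, so their RNA in whole gut can come from mesenchyme, epithelium, vessels or neurons. In bulk RNA, fewer cells of a type and less RNA per cell cannot be told apart.

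Receptors led the families in level. Plxnb2, a receptor for class 4 semaphorins, was the most abundant of the 57 genes in wild-type gut at each stage, with 53.7 ± 7.1 FPKM at E10.5 (SD, n = 4), 51.4 ± 4.7 FPKM at E12.5 (n = 5) and 54.3 ± 5.9 FPKM at E14.5 (n = 6). Ephb4, the venous Eph receptor, followed with 37.2 ± 4.5, 34.2 ± 2.7 and 36.3 ± 3.1 FPKM except at E12.5, when Nrp2, a co-receptor for class 3 semaphorins, lay above it at 39.0 ± 2.6 FPKM. Nrp2 stood at 30.2 ± 6.5 FPKM at E10.5 and 30.5 ± 7.7 FPKM at E14.5. The SDs of Ephb4 and Nrp2 overlapped at each stage, but both were measured in the same samples. Nrp2 lay above Ephb4 in every E12.5 wild-type sample. Ephb4 lay above Nrp2 in every E10.5 sample and in all E14.5 samples but male 1 (40.8 FPKM for Ephb4 and 42.3 FPKM for Nrp2). Their order was not tested. Among the ligands, Efnb1, Efnb2 and Sema4g led at E14.5 with 22.6 ± 2.1, 18.4 ± 3.0 and 24.1 ± 8.0 FPKM. Over all libraries the most abundant member of each remaining family was Sema3f among the 5 class 3 semaphorins included (16.8 FPKM), Sema4c among the other semaphorins (17.5), Efna4 among the A ephrins (19.2), Epha4 among the EphA receptors (10.1), Slit2 (12.8), Robo1 (18.4), Ntn1 (10.6) and Unc5b (11.3). The relatives of Robo1 and Slit2, Robo2 and Slit3, averaged 4.94 and 11.3 FPKM.

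**Figure D1:**
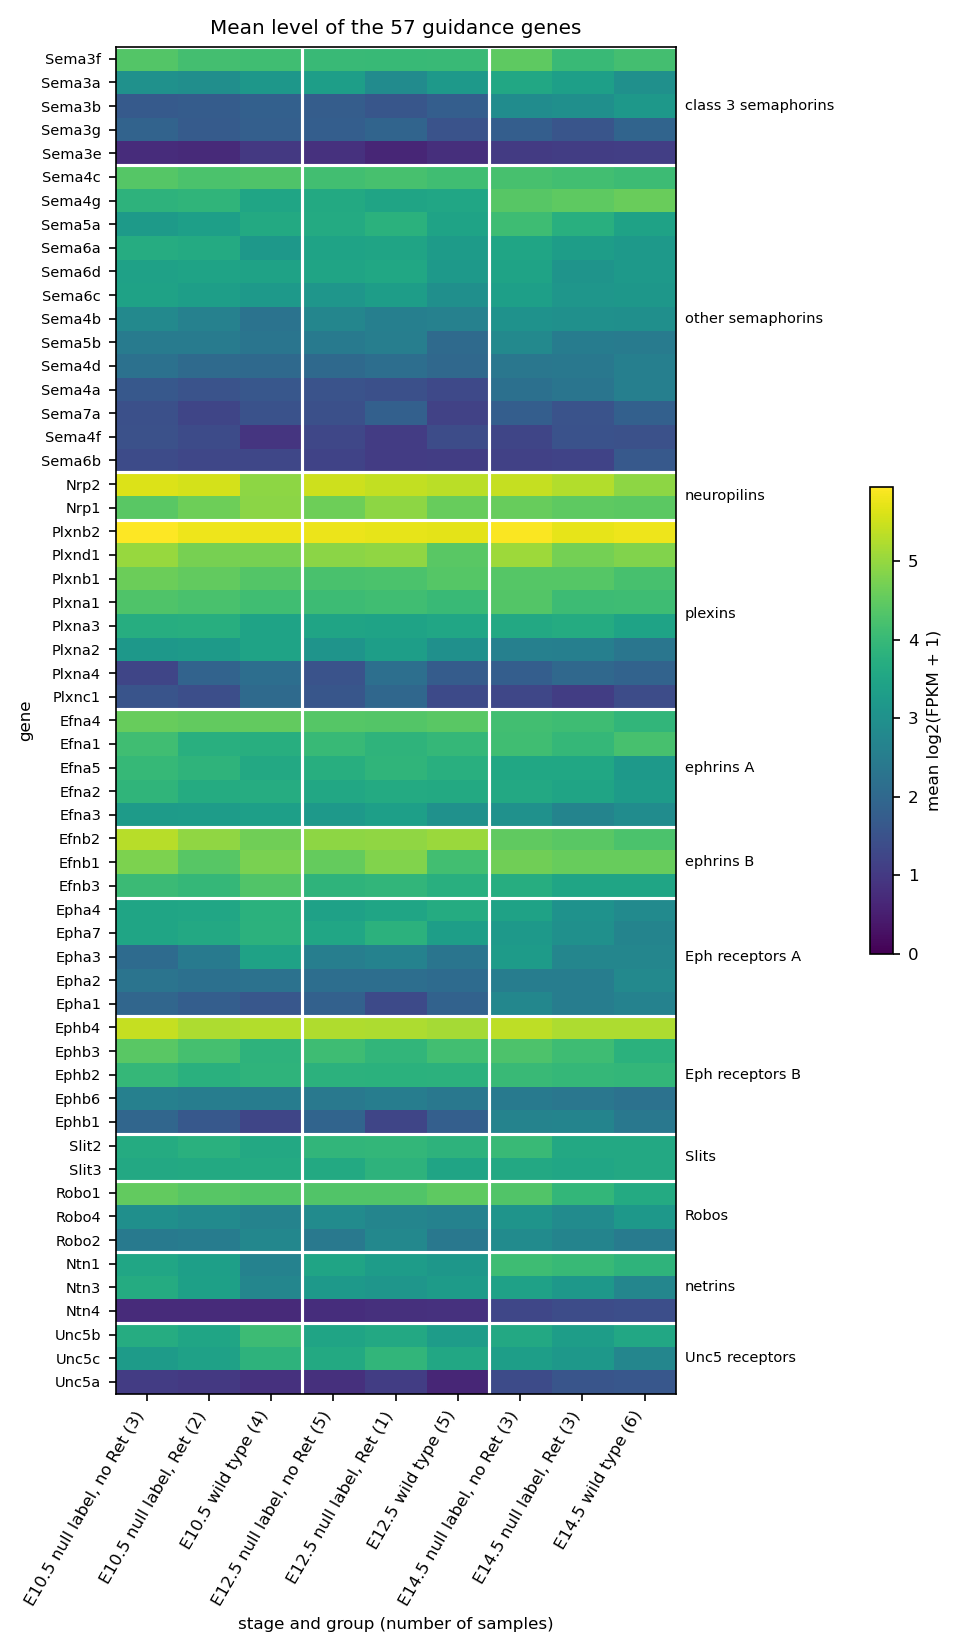
Mean log2(FPKM + 1) of each of the 57 genes (rows, by family) in each stage and group (columns, number of samples in brackets); yellow is high. Plxnb2, Ephb4 and Nrp2 form the brightest rows, and Sema3e, Ntn4 and Unc5a the darkest.

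In wild-type gut, Ntn1 and Ntn3 were called higher and Unc5b, Epha3 and 2 B ephrins lower at E12.5 than at E10.5. At E12.5 against E10.5, 3 of 57 members rose and 5 fell (limma on log2(FPKM + 1), Benjamini-Hochberg adjusted p under 0.05 over 14321 genes, the rule for every call here), where 2.75% of all genes rose and 1.82% fell. The calls made up 14.04% of the members and 4.57% of all genes. The 2 netrin genes Ntn1 and Ntn3 and the semaphorin gene Sema4b rose, and Epha3, Unc5b, Efnb1, Efnb3 and Plxna2 fell. Unc5b, a repulsive netrin receptor also found on endothelium, had 7.20, 7.75, 8.49, 10.4 and 10.4 FPKM at E12.5, against 13.1, 15.04, 16.4 and 19.8 FPKM at E10.5. The stages did not overlap, and the log2 fold change was -0.76 ± 0.14 (SE, adjusted p = 0.0027). Epha3, a receptor for A ephrins, had 2.53, 3.68, 3.79, 4.11 and 6.29 FPKM at E12.5, against 6.52, 8.10, 11.96 and 14.1 FPKM at E10.5, again without overlap (log2 fold change -1.08 ± 0.28, adjusted p = 0.0276). Over the same interval 4 of 6 mesonephros and gonad markers fell, and 7 of 10 smooth muscle, 5 of 10 epithelial and 3 of 11 neural crest and glia markers rose, with 1 smooth muscle and 1 of 9 endothelial markers falling. The part of these tissues in the calls was not tested. On the log2 scale Efnb1 fell by 0.60 (16.7 ± 0.90 FPKM at E12.5 and 26.1 ± 3.4 FPKM at E10.5), Efnb3 by 0.55 and Plxna2 by 0.45. Ntn3, Ntn1 and Sema4b rose by 0.53, 0.50 and 0.34. For Ntn1 the stages overlapped, with 7.13 to 8.88 FPKM at E12.5 against 2.29 to 9.96 FPKM at E10.5. The Ntn1 call was lost in 8 of 15 alternatives. Leaving out 1 sample left 2 to 9 calls, with 2 without the averaged E12.5 wild-type females 1 and 2, whose sex transcripts went against their label, 3 without E10.5 female 3, and 5 without E10.5 males 3 and 4, E10.5 male 5, E12.5 female 3 or E12.5 male 2.

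At E14.5 against E12.5, 18 of 57 members rose and 13 fell. That is 54.4% of the members, against 58.9% of all 14321 genes (31% rose and 27.9% fell), so a change over this interval was no more frequent than in the background. Of the 13 other semaphorins 6 rose and 0 fell (Sema4a, Sema4b, Sema4d, Sema4g, Sema6b and Sema7a), and the class 3 genes Sema3b and Sema3g rose as well. Of the 5 A ephrins 1 rose (Efna1) and 3 fell (Efna2, Efna4 and Efna5), and of the 3 B ephrins 1 rose (Efnb1) and 2 fell (Efnb2 and Efnb3). Sema3b, a secreted semaphorin, had 5.13 FPKM in the lowest, 8.43 FPKM in the median and 10.54 FPKM in the highest of the 6 E14.5 samples, against 2.07, 2.09, 2.15, 2.28 and 3.69 FPKM at E12.5 (log2 fold change 1.41 ± 0.15, adjusted p = 6.27e-08). Sema4a, a membrane-bound semaphorin, had 3.11, 4.89 and 8.17 FPKM as the lowest, median and highest E14.5 sample, against 1.25, 1.31, 1.42, 1.56 and 1.99 FPKM at E12.5 (1.27 ± 0.12, adjusted p = 1.58e-08). Every E14.5 sample lay above every E12.5 sample for both genes. Sema4g rose by 1.08, but its E14.5 samples ran from 11.9 to 34.9 FPKM and overlapped the 9.13 to 13.9 FPKM of E12.5.

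Among the receptors, Epha1 and Epha2 rose by 0.77 and 0.72 on the log2 scale, while Epha4 and Epha7 fell by 0.84 and 0.68. In the Robo family, Robo4, the endothelial Robo, rose by 0.54 (8.03 ± 1.2 FPKM at E14.5 and 5.21 ± 0.32 FPKM at E12.5), while Robo1 fell by 0.82. Robo1 had a lowest, median and highest value of 9.85, 11.6 and 12.8 FPKM at E14.5, against 19.6, 19.7, 21.0, 22.0 and 23.2 FPKM at E12.5, so the stages were far apart (adjusted p = 8.87e-06). In the netrin system, Ntn1 rose by 0.74 to 13.7 ± 1.9 FPKM at E14.5, against 7.90 ± 0.80 FPKM at E12.5, and Ntn4 and Unc5a rose by 0.58 and 0.96, whereas Ntn3 and Unc5c fell by 0.53 and 0.90. Efnb2 fell by 0.81, Plxna2 by 0.66, Efna5 by 0.56, Efna4 by 0.51 and Nrp2 by 0.37. Epithelial, smooth muscle, endothelial, pancreas and red cell markers rose over the same interval (8 of 10, 9 of 10, 6 of 9, 5 of 7 and 5 of 8, with 1 smooth muscle and 2 red cell entries falling), and their part in these changes was not tested. Leaving out each sample in turn kept the number of calls between 27 and 32.

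**Figure D2:**
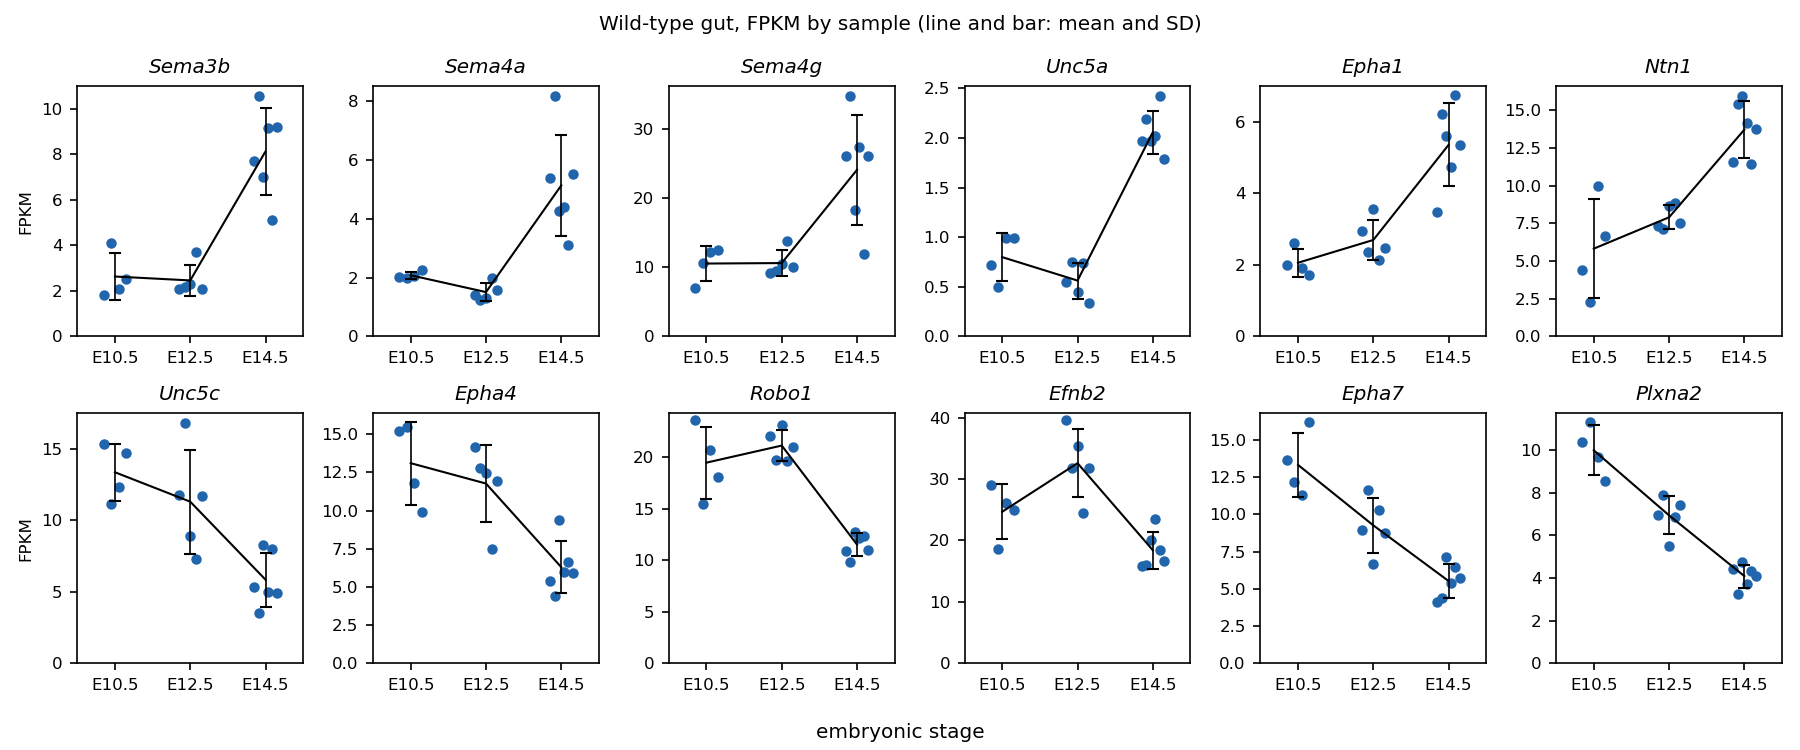
FPKM by sample in wild-type gut over the 3 stages (points), with the mean (line) and SD (bar), for the 6 guidance genes with the largest rise and the 6 with the largest fall from E12.5 to E14.5. Sema3b, Sema4a, Sema4g, Unc5a, Epha1 and Ntn1 have a higher mean at E14.5 than at E12.5, and Unc5c, Epha4, Robo1, Efnb2, Epha7 and Plxna2 a lower one.

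At E10.5 netrin RNA was higher and several receptors were lower in libraries labelled Ret null than in wild type. Of 55 members tested, 9 rose and 5 fell, where 5.61% of the 13165 genes tested rose and 2.67% fell. The members' median log2 fold change was 0.08, against 0.01 over all genes. Among the ligands Ntn1, Ntn3, Sema4b, Sema4f, Sema6a and Efna5 rose. Among the receptors Nrp2, Ephb3 and Plxna3 rose and Epha3, Epha4, Plxna2, Plxnc1 and Unc5c fell. Ntn1, Ntn3, Sema4b, Epha3 and Plxna2 were called in the same directions in wild type at E12.5 against E10.5. Both comparisons use the same E10.5 wild-type samples as reference and are not independent. Nrp2 had 45.5, 46.5, 46.9, 47.0 and 52.1 FPKM in the samples labelled Ret null, against 22.0, 28.6, 32.8 and 37.2 FPKM in wild type. The groups did not overlap, and the log2 fold change was 0.66 ± 0.08 (adjusted p = 0.00652). Ephb3, a receptor known from boundary formation in the intestinal epithelium, had 16.6, 18.2, 18.5, 21.3 and 21.9 FPKM in libraries labelled Ret null, against 11.7, 11.8, 13.97 and 15.9 FPKM in wild type, without overlap (0.48 ± 0.07, adjusted p = 0.0106).

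Ntn1, the ligand of DCC and Unc5 receptors, had 8.19, 9.51, 9.74, 10.4 and 12.55 FPKM in E10.5 samples labelled Ret null, against 2.29, 4.38, 6.67 and 9.96 FPKM in wild type. The averaged wild-type males 3 and 4 lay among the null samples, and the 2 wild-type female samples were lowest (log2 fold change 0.81 ± 0.18, adjusted p = 0.0361). Ntn3 had 8.63, 10.1, 10.9, 11.8 and 12.1 FPKM in libraries labelled Ret null, against 3.86, 6.13, 6.29 and 6.50 FPKM in wild type (0.79 ± 0.11, adjusted p = 0.0104). Ntn3 overlaps the neighbouring gene Tbc1d24 over 1720 bases, and the sources used here do not say whether counting used the strand, so its value is uncertain; Tbc1d24 itself differed by 0.04 on the log2 scale in this comparison and was not called. Of the receptors that fell, Epha3 had 1.69, 3.74, 4.003, 4.51 and 5.36 FPKM in samples labelled Ret null, against 6.52, 8.10, 11.96 and 14.1 FPKM in wild type (-1.16 ± 0.28, adjusted p = 0.0451). Unc5c, a netrin receptor that mediates repulsion, had 7.29, 8.76, 9.02, 10.1 and 10.3 FPKM, against 11.1, 12.3, 14.7 and 15.3 FPKM in wild type (-0.49 ± 0.12, adjusted p = 0.0468). Both were lower in every sample labelled Ret null than in any wild-type sample. Plxnc1 fell by 0.59, Epha4 by 0.30 and Plxna2 by 0.25, and Sema4f, Sema6a, Sema4b, Efna5 and Plxna3 rose by 0.50, 0.48, 0.44, 0.33 and 0.28 on the log2 scale.

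**Figure D3:**
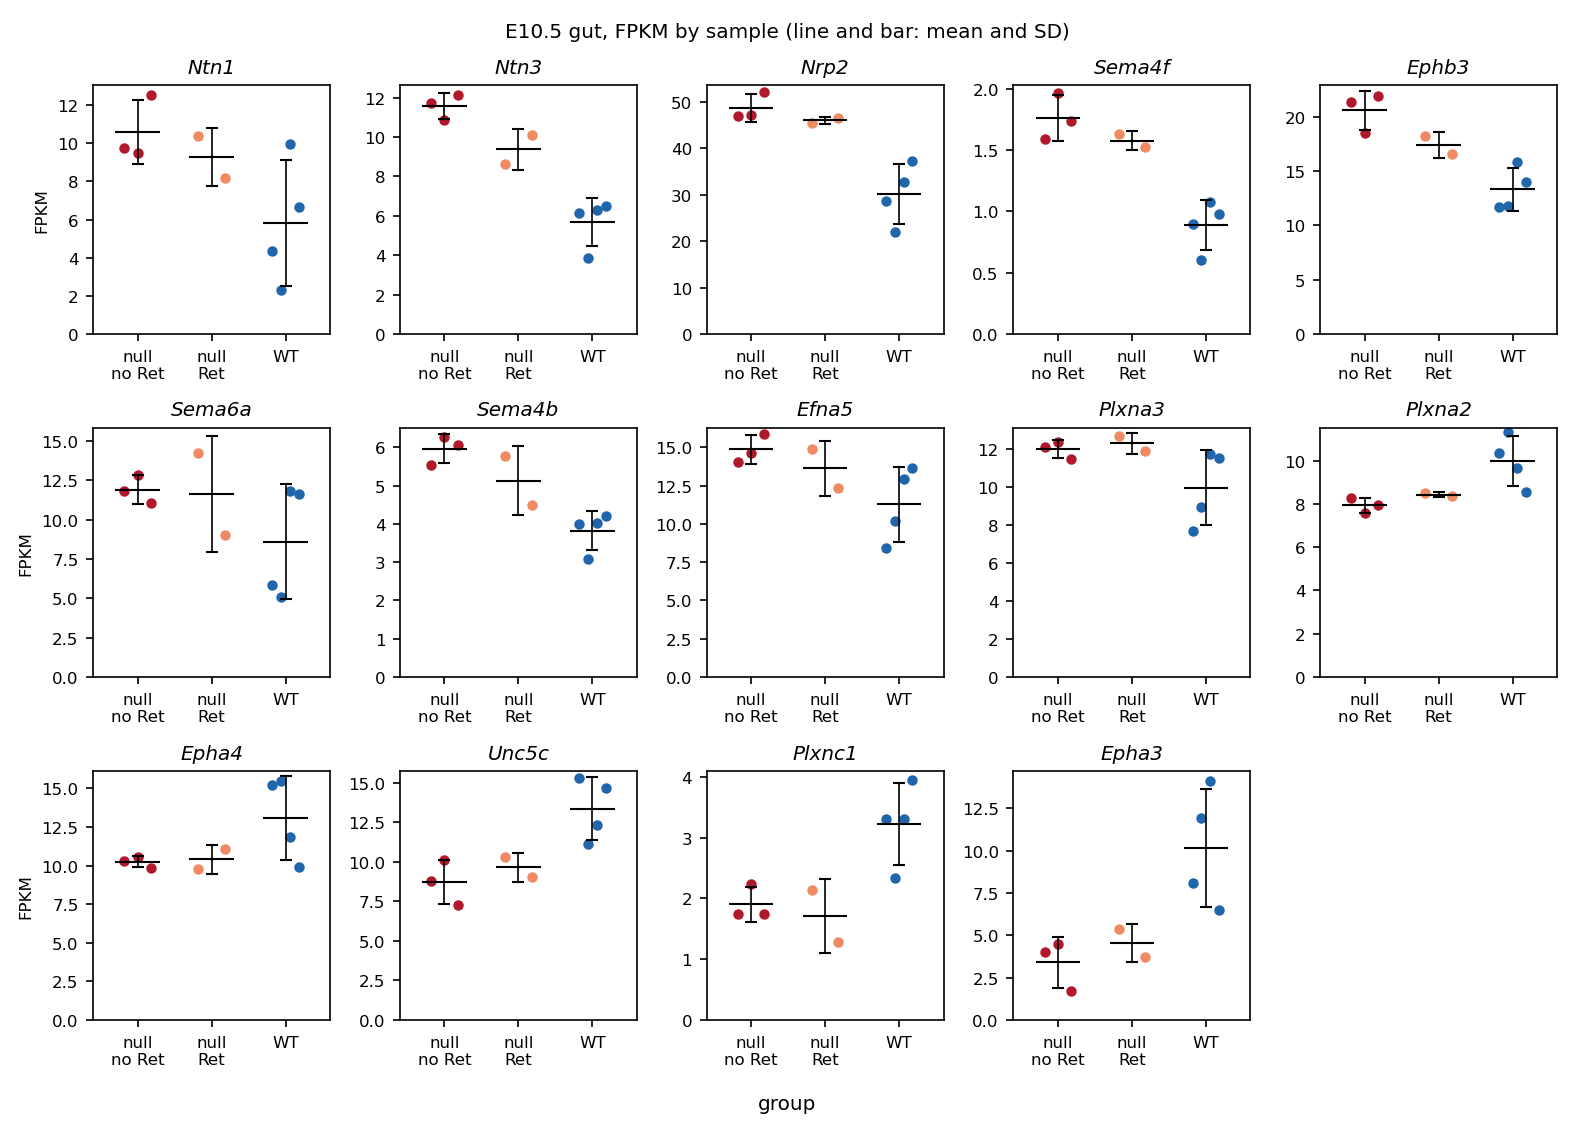
FPKM by sample at E10.5 for the 14 guidance genes called in libraries labelled Ret null against wild type, with libraries labelled Ret null split into those without and with Ret RNA (points), and the mean and SD of each group (line and bar). Nrp2, Ntn3, Ephb3, Sema4b and Sema4f stand above wild type in every sample labelled Ret null, and Epha3, Plxnc1, Unc5c and Plxna2 below it.

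Markers of other tissues differed in the same E10.5 comparison. Smooth muscle markers (8 of 10 rose) summed to 396 to 542 FPKM in libraries labelled Ret null and 125 to 261 FPKM in wild type, 6 of 10 epithelial markers rose as well, and stomach mesenchyme markers summed to 9.76 to 130 FPKM in libraries labelled Ret null and 3.70 to 42.7 FPKM in wild type. Mesonephros and gonad markers summed to 14.1 to 45.8 FPKM in libraries labelled Ret null and 40.6 to 69.8 FPKM in wild type. Those ranges overlapped, and 0 of 6 of these markers were called. Of the crest and glia markers 3 of 9 rose and 0 fell, and of the enteric neuron markers 1 of 15 rose and 0 fell. No gene of the first 2 lists was at 0 throughout a group, and among the stomach genes Gkn1 was at 0 in all 3 libraries without Ret RNA. Their part in the result was not tested. The calls also rested on single samples: leaving out 1 sample left 2 to 10 calls (2 without wild-type male 5, 3 without Ret null male 1 or male 3, 4 without Ret null male 2 or wild-type males 3 and 4, 5 without Ret null females 1 and 2, 8 without wild-type females 1 and 2 or female 3), and 1 call was left without the 2 samples whose sex transcripts went against the label.

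The 3 E10.5 libraries labelled Ret null that lacked Ret RNA were all labelled male and were set against the 2 wild-type male samples, although male 1 was female by Xist and Ddx3y. In that comparison 0 of 54 members and 0.522% of 13037 genes were called in either direction by limma. An unadjusted p under 0.05 was found for 12 members and for 20.2% of all genes. Ntn3 had 10.9, 11.8 and 12.1 FPKM in libraries labelled male and lacking Ret RNA, against 6.29 and 6.50 FPKM in wild-type males (0.76 ± 0.15, adjusted p = 0.0881). Ephb3 had 18.5, 21.3 and 21.9 FPKM, against 13.97 and 15.9 FPKM in wild-type males (0.44 ± 0.09, adjusted p = 0.0947). Sema5a, a semaphorin with thrombospondin repeats, had 7.04, 8.44 and 9.81 FPKM, against 12.7 and 17.9 FPKM in wild-type males (-0.78 ± 0.17, adjusted p = 0.0947). None of these 3 genes passed the threshold. Their groups did not overlap, which held for 14 members higher and 13 lower, and for 27% and 18.3% of all genes. Leaving out male 1 left 0 calls as well. With every library counted as its own sample, 8 members were called.

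At E12.5 none of the members passed the test between genotypes. In libraries labelled Ret null against wild type 0 of 55 members were called by limma and 0.00759% of 13182 genes were called in either direction. An unadjusted p under 0.05 was found for 9 members and for 8.46% of all genes. Plxnd1, the plexin for Sema3e that is known from blood vessel patterning, had 22.8 FPKM in the lowest and 34.1 FPKM in the highest of the 6 samples labelled Ret null, against 18.3, 19.3, 20.0, 21.4 and 22.6 FPKM in wild type. Every sample labelled Ret null was above wild type, by a small margin at the nearest pair (log2 fold change 0.48 ± 0.10, adjusted p = 0.344). Efnb1 had 18.1 to 27.3 FPKM in samples labelled Ret null and 16.0 to 18.2 FPKM in wild type (0.43 ± 0.11, adjusted p = 0.451), and Robo4 had 5.504 to 7.02 FPKM in samples labelled Ret null and 4.87 to 5.64 FPKM in wild type (0.22 ± 0.06, adjusted p = 0.473). Plxnd1 and Efnb1 were lowest in female 1 and male 3 of this group. Mesonephros and gonad markers summed to 16.3 and 14.9 FPKM in those libraries and to 32.3 to 45.0 FPKM in the other 4 labelled Ret null, against 8.86 to 21.7 FPKM in wild type. Endothelial markers summed to 144 and 131 FPKM in the same libraries and to 174 to 201 FPKM in the other 4, against 120 to 160 FPKM in wild type. The part of either tissue in these values was not tested.

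Without the Ret-expressing male 2, 0 of 54 members were called at E12.5 by limma and 0.259% of 13121 genes were called in either direction. An unadjusted p under 0.05 was found for 6 members and for 7.87% of all genes. Plxnd1, Robo4 and Ntn1 had the smallest p-values, with log2 fold changes of 0.47 ± 0.11 (adjusted p = 0.318), 0.25 ± 0.06 (adjusted p = 0.321) and 0.36 ± 0.09 (adjusted p = 0.342). Ntn1 had 9.08, 9.13, 9.63, 10.6 and 12.51 FPKM in samples without Ret RNA, against 7.13, 7.31, 7.56, 8.64 and 8.88 FPKM in wild type. Those ranges did not overlap, which held for 3 members higher and 0 lower in this comparison, and for 0.876% and 1.37% of all genes. Neuronal markers fell in the same libraries (3 of 15, summing to 65.6 to 211 FPKM without Ret RNA and 213 to 270 FPKM in wild type). Of the crest and glia markers 3 of 9 fell. That list summed to 59.3 to 73.2 FPKM without Ret RNA and 95.8 to 141 FPKM in wild type.

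**Figure D4:**
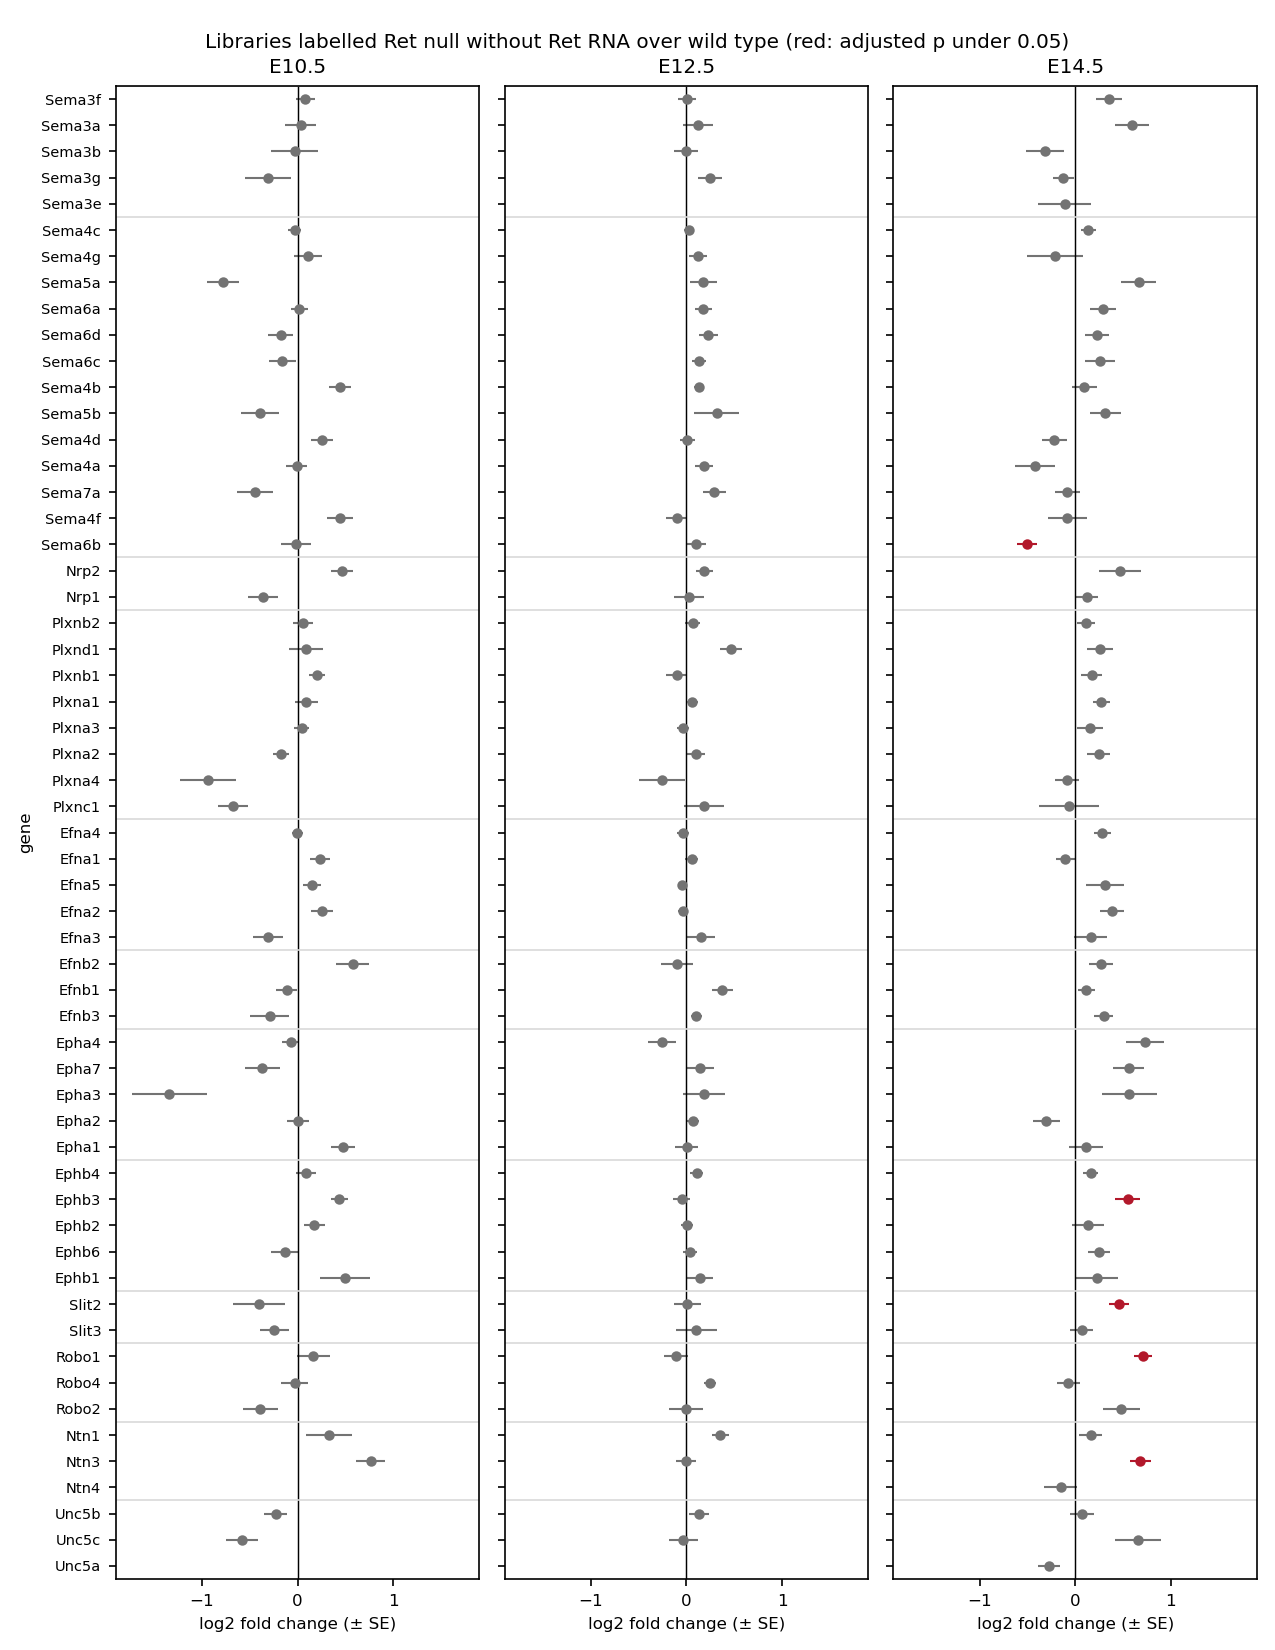
Log2 fold change (point) with its standard error (bar) for each guidance gene in libraries labelled Ret null without Ret RNA over wild type, by stage; genes not tested at a stage have no point, and red marks adjusted p under 0.05. Red points appear at E14.5 alone among these 3 comparisons: Robo1, Ntn3, Ephb3 and Slit2 to the right of 0 and Sema6b to the left.

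At E14.5, Slit2 and its receptor Robo1 were both higher in gut without Ret RNA, together with Ntn3 and Ephb3, while Sema6b was lower. In the 3 samples labelled Ret null that lacked Ret RNA (female 2, male 2 and male 3) 4 of 57 members rose and 1 fell, where 3.96% of 13729 genes rose and 4.65% fell. Both directions together made up 8.77% of the members and 8.61% of all genes, so calls were about as frequent as in the background. The members' median log2 fold change was 0.16, against 0.03 over all genes. The single female sample was assumed to vary like the samples of the other groups. With the sexes averaged, it carried as much weight as males 2 and 3 together. Those 2 libraries differed by little more than counting noise (1.05 times) but were counted separately, so the spread between them may be largely technical. The promoters of these 5 genes are shown because their transcripts moved in the same comparison; each runs from 250 bases before to 50 bases after the start of the gene (RefSeq sequences, GRCm38.p6, the assembly behind mm10), 5′ to 3′ on the gene's strand, with GC boxes (GGGCGG, or CCGCCC for the other strand), the motif bound by Sp family factors, in capitals.

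Robo1 promoter, chr16:72662899-72663198, plus strand: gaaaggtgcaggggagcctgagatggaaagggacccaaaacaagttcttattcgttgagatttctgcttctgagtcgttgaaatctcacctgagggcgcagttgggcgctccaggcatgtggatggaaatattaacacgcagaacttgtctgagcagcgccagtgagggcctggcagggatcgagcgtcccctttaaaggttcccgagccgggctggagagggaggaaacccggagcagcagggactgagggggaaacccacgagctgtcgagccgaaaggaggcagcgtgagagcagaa
Slit2 promoter, chr5:47982905-47983204, plus strand: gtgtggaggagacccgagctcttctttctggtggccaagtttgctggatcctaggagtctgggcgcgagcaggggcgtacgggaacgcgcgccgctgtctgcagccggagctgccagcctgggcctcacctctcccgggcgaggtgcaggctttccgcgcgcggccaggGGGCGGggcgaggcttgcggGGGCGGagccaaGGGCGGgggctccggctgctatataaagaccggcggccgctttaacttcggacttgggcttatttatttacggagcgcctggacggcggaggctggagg
Ntn3 promoter, chr17:24209338-24209637, minus strand: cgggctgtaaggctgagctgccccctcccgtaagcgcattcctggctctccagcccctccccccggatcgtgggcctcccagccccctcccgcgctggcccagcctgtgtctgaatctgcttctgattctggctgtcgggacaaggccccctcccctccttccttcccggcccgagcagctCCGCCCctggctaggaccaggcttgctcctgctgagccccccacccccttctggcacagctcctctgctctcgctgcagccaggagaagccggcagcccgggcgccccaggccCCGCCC
Ephb3 promoter, chr16:21204545-21204844, plus strand: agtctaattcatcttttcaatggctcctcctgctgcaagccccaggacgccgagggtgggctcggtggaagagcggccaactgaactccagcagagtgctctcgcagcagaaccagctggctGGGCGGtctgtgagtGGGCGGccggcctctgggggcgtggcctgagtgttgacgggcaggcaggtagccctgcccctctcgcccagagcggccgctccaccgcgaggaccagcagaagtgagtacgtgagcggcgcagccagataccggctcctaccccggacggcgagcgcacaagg
Sema6b promoter, chr17:56140294-56140593, minus strand: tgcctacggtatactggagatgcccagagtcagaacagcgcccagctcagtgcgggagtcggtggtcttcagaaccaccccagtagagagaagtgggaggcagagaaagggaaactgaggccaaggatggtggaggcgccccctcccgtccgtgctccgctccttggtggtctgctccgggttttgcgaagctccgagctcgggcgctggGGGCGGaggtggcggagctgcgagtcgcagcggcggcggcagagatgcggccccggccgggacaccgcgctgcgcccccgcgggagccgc

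The windows of Slit2, Ntn3, Ephb3 and Sema6b held 3, 2, 2 and 1 GC boxes and that of Robo1 held 0. A GC box stood in 35.7% of all 32851 promoters of the same length and in 71.2% of the 66 promoters of the 50 members that had an entry in the table. A TATAAA or TTTATA run stood in 13.6% of all promoters and in 3.03% of the members' promoters, that of Slit2 among them. The members' promoters had a median GC content of 64.5%, against 52.7% for all promoters. These matches are a description of the letters and not evidence of binding.

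Robo1 (chr16:72663149-73046100) had 18.2, 18.2 and 20.7 FPKM in E14.5 samples without Ret RNA, against 9.85, 11.6 and 12.8 FPKM as the lowest, median and highest of the 6 wild-type samples. The 3 samples labelled Ret null that held Ret RNA had 11.6, 14.49 and 17.1 FPKM and so lay between the other groups, overlapping wild type. Robo1 was higher in each sample without Ret RNA than in any wild-type sample, with a log2 fold change of 0.71 ± 0.09 (adjusted p = 0.0115). Such a lack of overlap with wild type held for 9 of 57 members higher and 2 lower, and for 16.3% and 9.45% of all genes. Slit2 (chr5:47983155-48305778), the secreted repellent that Robo1 binds, had 15.1, 15.5 and 15.6 FPKM without Ret RNA, 9.54, 10.3 and 13.8 FPKM in samples labelled Ret null with Ret RNA, and 9.49, 10.7 and 12.9 FPKM as the lowest, median and highest wild-type sample (0.46 ± 0.10, adjusted p = 0.0388). The samples with Ret RNA thus overlapped the wild-type range of Slit2, with the highest, 13.8 FPKM, above it. All samples without Ret RNA lay above both groups. The difference between the samples with and without Ret RNA was not tested. The paralogs were not called in the same comparison: Robo2, Robo4 and Slit3 differed from wild type by 0.48 ± 0.19, -0.07 ± 0.12 and 0.07 ± 0.12 on the log2 scale.

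Ephb3 (chr16:21204795-21223304) had 16.4, 17.0 and 22.5 FPKM without Ret RNA, 15.01, 16.0 and 17.2 FPKM in samples labelled Ret null with Ret RNA, and 9.82, 13.0 and 15.2 FPKM as the lowest, median and highest wild-type sample (0.55 ± 0.13 without Ret RNA, adjusted p = 0.0415). Ntn3 (chr17:24203843-24209387) had 8.60, 9.80 and 10.2 FPKM without Ret RNA, 7.58, 7.95 and 8.46 FPKM in samples labelled Ret null with Ret RNA, and 4.70, 5.83 and 6.30 FPKM as the lowest, median and highest wild-type sample (0.68 ± 0.11, adjusted p = 0.0176). Both sets of samples labelled Ret null lay above all wild-type samples for Ntn3. Here the overlapping gene Tbc1d24 was called as well, with a rise of 0.44 (adjusted p = 0.0457), so the Ntn3 value is uncertain. How far reads from the 1720 shared bases entered it was not tested. Sema6b (chr17:56123085-56140343), a transmembrane semaphorin that binds class A plexins, had 1.20, 1.20 and 1.28 FPKM without Ret RNA, 1.14, 1.19 and 1.497 FPKM in samples labelled Ret null with Ret RNA, and 1.97, 2.24 and 2.32 FPKM as the lowest, median and highest wild-type sample (-0.50 ± 0.11, adjusted p = 0.0339). Sema6b was thus low in every sample labelled Ret null, whether or not Ret RNA was present.

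With all 6 samples labelled Ret null at E14.5, 6 of 57 members rose and 1 fell, where 10.9% of 13861 genes rose and 4.84% fell. The members' share was 12.3% in both directions together. Ntn3, Sema5a, Robo1, Sema3a, Epha7 and Ephb3 rose by 0.56, 0.50, 0.48, 0.48, 0.40 and 0.39 on the log2 scale, and Sema6b fell by 0.50 (adjusted p of 0.00885 for Sema6b and 0.00958 for Ntn3, and 0.0228 to 0.0468 for the others). Sema3a, a secreted repellent of growing axons that acts through neuropilin 1, had 10.4, 10.6 and 11.3 FPKM without Ret RNA and 8.76, 9.35 and 9.71 FPKM with it, against 4.60, 6.99 and 9.28 FPKM as the lowest, median and highest wild-type sample. Wild-type female 3 lay among the samples with Ret RNA. Sema5a had 15.4, 15.8 and 17.1 FPKM without Ret RNA and 10.96, 13.1 and 13.5 FPKM with it, against 7.81, 9.55 and 14.3 FPKM in wild type, and Epha7, a receptor for A ephrins, had 7.57, 7.69 and 9.42 FPKM without and 6.43, 6.88 and 7.36 FPKM with it, against 4.11, 5.56 and 7.12 FPKM in wild type. For both, wild-type female 3 was the highest wild-type sample and overlapped the samples with Ret RNA. The 2 E14.5 comparisons share their wild-type samples and are not independent. With median-ratio scaling of the FPKM values, 3 members rose and 2 fell in all samples labelled Ret null, in place of 6 and 1, and among all genes 727 of 1611 calls were rises, in place of 1504 of 2175.

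**Figure D5:**
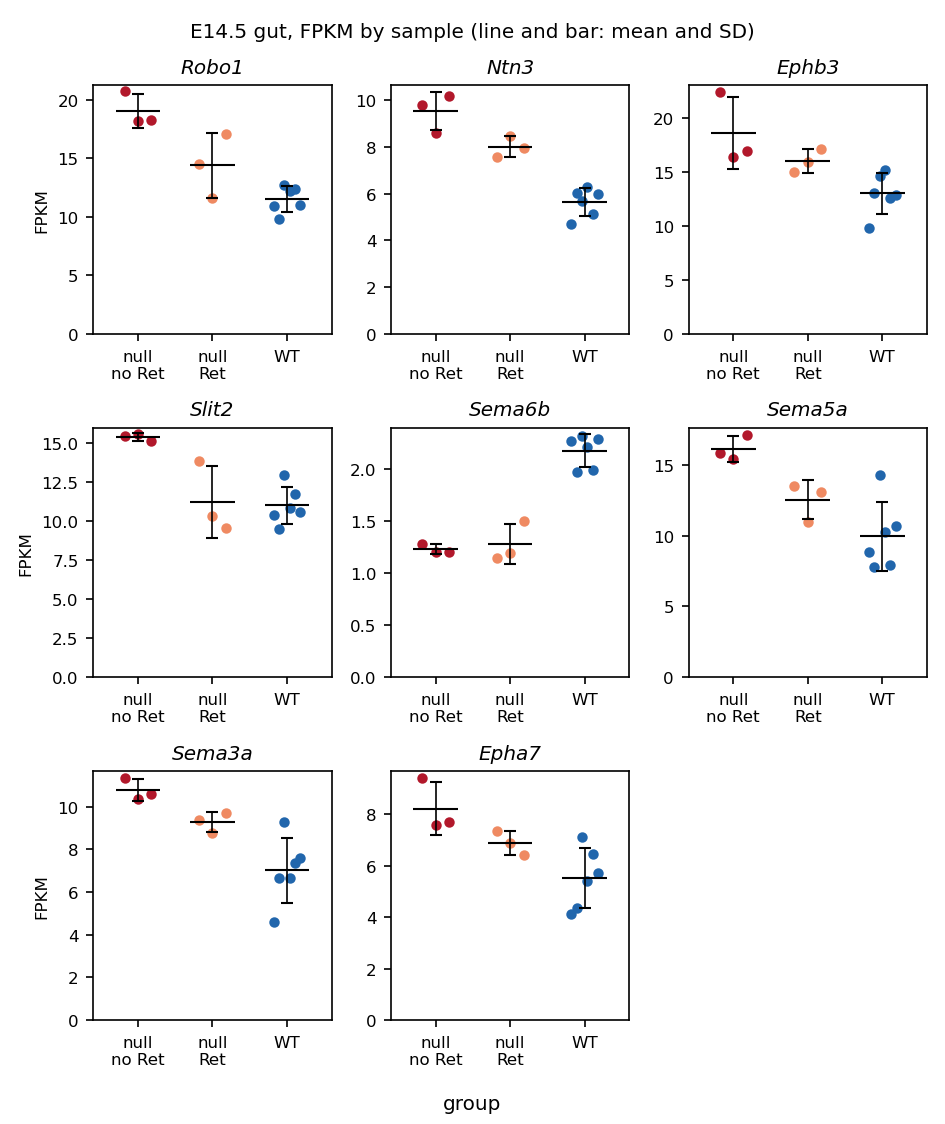
FPKM by sample at E14.5 (points) with mean and SD (line and bar) in libraries labelled Ret null without Ret RNA, labelled Ret null with Ret RNA, and wild type, for the guidance genes called in either E14.5 comparison. Slit2 and Robo1 are highest without Ret RNA, whereas Sema6b is low in both sets labelled Ret null, at 1.14 to 1.497 FPKM, below the 1.97 to 2.32 FPKM of wild type.

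The E14.5 calls rested on few samples. The log2 fold change of Ephb3 without Ret RNA ran from 0.28 to 0.61 over 15 alternatives, and 0.28 was the value without female 2. Without Ret RNA, leaving out any 1 of the 3 samples (female 2, male 2 or male 3) left 0 calls, and leaving out wild-type female 1, 2 or 3 or male 3 left 3, 2, 14 and 2; with all samples labelled Ret null the count ran from 2 (without Ret null female 1, male 2 or male 3, or wild-type male 3) through 3 (without Ret null female 2 or male 1, or wild-type female 2) and 4 (without wild-type female 1) to 13 (without wild-type female 3). Ntn3 and Sema6b stayed called in all 18 alternatives of the comparison with all samples labelled Ret null. In the libraries without Ret RNA 12 of 15 enteric neuron markers fell (sums of 53.3 to 77.1 FPKM, against 317 to 369 FPKM in libraries labelled Ret null with Ret RNA and 159 to 376 FPKM in wild type, none at 0 throughout a group) and 6 of 11 crest and glia markers fell; the part of that in the calls was not tested. In all libraries labelled Ret null 5 of 8 red cell and 3 of 7 pancreas markers fell, and the libraries labelled Ret null were deeper (about 6200000 to 8100000 fragments) than wild type (about 4890000 to 6800000).

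The genotype difference was then tested for a change between E12.5 and E14.5. In the genotype-by-stage term (E14.5 less E12.5, without the Ret-expressing libraries labelled Ret null) 6 of 57 members were higher and 2 lower, where 10.7% of 14247 genes were higher and 7.3% lower. That is 14.04% of the members, against 18% of all genes. Epha4 had the largest term, 0.99 ± 0.23 (adjusted p = 0.00938): it had 7.66, 8.10 and 14.8 FPKM without Ret RNA at E14.5, against 4.39, 5.97 and 9.41 FPKM as the lowest, median and highest wild-type sample, whereas at E12.5 it had 7.93, 8.79, 9.10, 10.3 and 12.3 FPKM without Ret RNA, against 7.50, 11.9, 12.48, 12.8 and 14.2 FPKM in wild type. The terms of Robo1 (0.82 ± 0.19), Ntn3 (0.68 ± 0.17), Ephb3 (0.60 ± 0.15), Efna2 (0.43 ± 0.13) and Efna4 (0.32 ± 0.09) were positive, and those of Sema4a (-0.61 ± 0.20) and Sema6b (-0.60 ± 0.14) were negative (adjusted p from 0.00854 to 0.0458). Tbc1d24, which overlaps Ntn3, had a called term too (0.36, adjusted p = 0.0449). Robo1, Epha4, Ephb3, Ntn3, Efna2 and Efna4 were among the 13 members that fell from E12.5 to E14.5 in wild type, and Sema4a and Sema6b among the 18 that rose; the wild-type samples are the same in both, so this is no separate result. Without E14.5 Ret null female 2, which had the highest Epha4, Ephb3 and Robo1 of its stage, 1 call was left (Sema6b); 5 were left without E12.5 Ret null male 1, E12.5 wild-type females 1 and 2, or E14.5 Ret null male 3. Of the markers, 4 of 8 red cell and 3 of 7 pancreas entries, and 1 each of the enteric neuron, crest and glia and smooth muscle lists, had called negative terms. Another 1 of the 11 crest and glia markers and 1 of 4 motor or sensory neuron markers had called positive terms. The part of the markers in the members' terms was not tested.

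The test of sex used the labels, which Xist and Ddx3y contradict for 2 of the 5 E10.5 samples labelled Ret null and for the averaged E12.5 wild-type females 1 and 2, so its counts say little about sex at those stages. The genotype-by-sex term, coded as the null-less-wild-type difference in males less that in females, called 0 of 55 members at E10.5, 0 of 55 at E12.5 and 0 of 57 at E14.5 by limma, with 10, 0 and 2 members under an unadjusted p of 0.05; 0% of all genes were called at each stage, and 18.7%, 2.31% and 3.85% of all genes lay under that unadjusted p. The smallest p-values belonged to Plxna3, Sema6a and Sema5a at E10.5 (terms of -0.47 ± 0.12, -0.92 ± 0.24 and -0.92 ± 0.24, adjusted p of 0.126, 0.127 and 0.132). At E12.5 they belonged to Epha4 (0.54 ± 0.26), Sema4a (-0.35 ± 0.17) and Unc5c (0.61 ± 0.30), all at adjusted p = 0.989, and at E14.5 to Ntn1 (0.60 ± 0.17), Slit3 (-0.45 ± 0.18) and Sema4a (0.60 ± 0.30), all at adjusted p = 0.980. At E10.5 the libraries labelled Ret null female held Ret RNA and those labelled male did not, so the label for sex and Ret RNA cannot be told apart there. Without the 2 E10.5 samples that went against their label, 0 members were called. With every library counted as its own sample, 9 members were called at E10.5.

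Other guidance genes, from lists of receptors, ligands and intracellular effectors, were called in both directions in E14.5 libraries without Ret RNA, where 3.96% of all genes rose and 4.65% fell. There 3 of 19 other receptors and co-receptors fell: the adhesion molecule genes L1cam (-2.04 ± 0.25, adjusted p = 0.00934) and Nfasc (-0.99 ± 0.23), and the cadherin gene Celsr3 (-0.96 ± 0.21); Flrt2 (0.72 ± 0.18) and Neo1, a netrin and RGM receptor (0.44 ± 0.10), rose. Of 15 other ligands 2 rose, Rgma (0.55 ± 0.13), which encodes a neogenin ligand, and the chemokine gene Cxcl12 (0.49 ± 0.11), and 0 fell. Of 36 intracellular effectors 5 fell, the growth cone gene Gap43 (-2.02 ± 0.29), the collapsin response mediator genes Crmp1 (-1.08 ± 0.25), Dpysl3 (-0.97 ± 0.14) and Dpysl5 (-1.36 ± 0.16), and Stmn2 (-1.29 ± 0.27), and 1 rose, Srgap1, which encodes a Slit-Robo GTPase-activating protein (0.44 ± 0.09). Gap43 and Stmn2 also stand on the enteric neuron list. In E12.5 libraries without Ret RNA, 2 of 19 other receptors fell, Chl1 (-0.67 ± 0.09, adjusted p = 0.0252) and Nrcam (-0.55 ± 0.08, adjusted p = 0.0466). There 0.259% of all genes fell. With all E12.5 libraries labelled Ret null, 0 of 19 other receptors were called. In E10.5 libraries labelled Ret null 6 of 15 other ligands rose, where 5.61% of all genes rose. They were Shh (1.21 ± 0.12), Gdnf, the Ret ligand (1.06 ± 0.15), Rgmb, Rgma, Wnt5a and Slitrk6. In the libraries labelled Ret null male, which lacked Ret RNA, 1 of 15 rose, Shh by 1.25 ± 0.18 (adjusted p = 0.0478). There 0.453% of all genes rose. In all E10.5 libraries labelled Ret null 1 of 16 other receptors fell, Flrt3 (-0.69 ± 0.11), where 2.67% of all genes fell.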

How the data were processed

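RNA of mouse embryonic gut was extracted with Trizol and RNeasy columns, selected with oligo-dT and made into Illumina TruSeq libraries, per the labels' protocols. The authors deposited FPKM values with confidence intervals per gene and library, made with TopHat2, Picard, Cufflinks and Cuffdiff on mm10, per the submitters' processing notes; no version or strand setting is stated there. Log2(FPKM + 1) values were compared with limma 3.58.1 in R 4.3.3 (trended empirical Bayes) on means of genotype and sex at each stage, the genotype contrast being averaged over the sexes; 1 fit over all groups gave the stage and genotype-by-stage terms. Tested genes reached 1 FPKM in 3 or more samples and had a successful estimate in every library; p-values were adjusted over all of them by Benjamini-Hochberg. The procedure was tested on simulated data.

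Of 36 pairs of libraries within groups, 4 differed by 0.907 to 1.08 times the counting noise and were averaged. They had at most 0.74% of genes beyond 3 SD, against 1.6% to 38.7% in the others. E14.5 Ret null males 2 and 3 differed by 1.05 times the noise. With 1.6% of genes beyond 3 SD they were over the limit of 1% and were counted separately. Replicate numbers did not pair samples. The members and all gene and marker lists were chosen with earlier results of these data known. Named genes are Ret, the most abundant member of each family, up to 10 rising and 10 falling called members per comparison by fold change, and the 3 smallest p-values where fewer than 3 were called; others were named after their values were seen. Fragment numbers were estimated from the deposited confidence intervals. Alternatives were pseudocounts of 0.1 and 0.5, no filter, median-ratio scaling, every library counted, a replicate block, leaving out libraries against their sex label, and leaving out each sample.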

Additional observations from a re-analysis of the deposited data

Results flagged for a closer look

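Single samples stood apart from the rest of their group for 14 of 246 combinations of gene and group with 4 to 6 samples; chance flags about 1 in 20. Ephb3 (22.5 FPKM), Unc5c (10.7 FPKM), Epha4 (14.8 FPKM) and Efnb3 (15.5 FPKM) were each far above the other samples in E14.5 Ret null female 2, the only female library at that stage without Ret RNA. In the other E14.5 samples labelled Ret null, Plxna3 was high in male 1 (13.3 FPKM) and Ntn4 in female 1 (2.38 FPKM). In E14.5 wild-type male 2, Sema4f (3.29 FPKM) and Plxnc1 (4.08 FPKM) were high. At E12.5, wild-type male 2 had the highest Sema6a (11.2 FPKM) and Sema3b (3.69 FPKM). At E10.5, Nrp2 was high in Ret null male 3 (52.1 FPKM), Robo4 (5.24 FPKM) and Ephb4 (31.6 FPKM) were low in Ret null female 3, and Ntn3 was low in wild-type female 3 (3.86 FPKM).

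The genotype difference changed between E12.5 and E14.5 for 8 genes by limma's interaction term, on the log2 scale: Epha4 (0.99), Robo1 (0.82), Ntn3 (0.68), Ephb3 (0.60), Efna2 (0.43) and Efna4 (0.32) had positive terms, and Sema4a (-0.61) and Sema6b (-0.60) negative ones. These are 14.04% of the 57 members, against 18% of all genes tested, and leaving out 1 sample left 1 to 11 calls, with 1 (Sema6b) without E14.5 Ret null female 2.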

How the results depend on the processing

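Of 1373 values of 80 named results under the alternatives, 1105 kept their direction and side of the threshold, 261 lost the call, 7 gained it and 0 reversed. The number of members called moved by over 1.5 times as follows. At E10.5 in all libraries labelled Ret null (14 calls), it was 4 with no filter, 9 with the replicate block, 1 without libraries against their sex label and 2 to 10 on leaving out 1 sample. At E14.5 in all libraries labelled Ret null (7 calls), it was 4 with no filter, 4 with the replicate block and 2 to 13 on leaving out 1 sample. At E14.5 without Ret RNA (5 calls), it was 3 with no filter, 0 with the replicate block and 0 to 14 on leaving out 1 sample. With every library counted it was 8 at E10.5 without Ret RNA (0 calls), 16 for wild type at E12.5 against E10.5 (8 calls; 2 to 9 on leaving out 1 sample) and 9 for the sex term at E10.5 (0 calls; 4 with the replicate block). The genotype-by-stage count (8) was 1 to 11 on leaving out 1 sample. Counting every library treats near-identical pairs as separate samples. Replicate numbers share no stated source, and of 16 same-number pairs 4 had a correlation of deviations above 0.1 (range -0.29 to 0.33), so the block is no paired design. Few samples per group and about 4890000 to 6800000 fragments in E14.5 wild type limit the precision of the low genes.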
